A study of Mus musculus with 12 samples.

Results

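The comparison described here sets the cerebella of heterozygous Atxn1 154Q/2Q knock-in (Het) mice against those of wild-type (Wt) mice, with both Het treatment groups pooled. The libraries were chosen by a rule on their own reads: a library stayed in if mitochondrial transcripts made up at least 0.5% of its gene reads and if Fat2, a protocadherin gene of cerebellar granule cells, reached at least 500 CPM of gene reads (CPM is the read count scaled to a common library size). Of 12 libraries, 10 passed: 6 of 8 Het libraries (2 of 4 Het-DMSO and 4 of 4 Het-Hit2) and 4 of 4 Wt-DMSO libraries. Het-DMSO animals 409 and 411 were left out. In library 409, mitochondrial transcripts took 0.0795% of gene reads (Wilson 95% interval 0.0787% to 0.0804%, counting error only), and the next library above the limit had 1.85%. In library 411, Fat2 stood at 2.63 CPM of gene reads, and the next library, Het-Hit2 animal 430, at 1495. These values chose the libraries, so no test of Fat2 or of mitochondrial genes is given.

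In the Atxn1 154Q/2Q line 1 Atxn1 allele carries an expanded CAG tract and the other does not, and every Het mouse was of this genotype. Mice entered treatment at 18 weeks of age and received intraperitoneal injections for 5 days, 2 rest days and a further 5 days, and the cerebellum was taken at 20 weeks. Het-Hit2 mice received the compound Hit 2 at 25 mg/ml in dimethyl sulfoxide (DMSO), while Het-DMSO and Wt-DMSO mice received DMSO alone, so every group was exposed to the solvent and no Wt mouse received Hit 2. Each library is 1 animal, and libraries are named by group and animal number.

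Spinocerebellar ataxia type 1 (SCA1) is a dominantly inherited ataxia in which an expanded glutamine tract in ataxin-1, a nuclear protein that works in transcriptional repressor complexes with Capicua, damages the cerebellum. Purkinje cells, the sole output neurons of the cerebellar cortex, are the cells best known to be affected. They receive excitation from granule cells and climbing fibres, and much of their signalling runs through phospholipase C, inositol trisphosphate and calcium release.

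The libraries kept held 15855751 to 43670280 reads assigned to genes on the strand counted. Granule cell genes summed to 4894 to 8158 CPM (from here on with library sizes scaled by TMM) in Het and 7345 to 8304 CPM in Wt libraries, but the rule asked for Fat2 of the same cells, so their presence is no check of the tissue label. Purkinje cell genes, which the rule did not use, were read in every library kept, with sums of no less than 6917 CPM. Xist, which marks female cells, stood at 1393 and 1437 CPM in Wt animals 425 and 426 and at no more than 0.295 CPM in every other library, while Y-linked genes were read in the others. The Wt group therefore held both sexes and the Het group males only. Het-Hit2 animal 410 had the lowest Purkinje and granule cell levels of the libraries kept and the highest oligodendrocyte and midbrain marker levels.

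In edgeR's quasi-likelihood test with Benjamini-Hochberg adjustment over 19071 genes, 182 genes (0.954%) passed an adjusted p of 0.05. Of these, 44 were higher in Het cerebella (0.231% of genes tested) and 138 were lower (0.724%). Every Het library lay on the same side of every Wt library for 180 of the 182, the exceptions being Slc16a11 and Crebrf. Over all genes tested, the Het libraries lay wholly above the Wt libraries for 245 genes (1.28%) and wholly below for 449 (2.35%). The changes were mostly of moderate size. The median log2 fold change was 0.67 among the higher genes and -0.65 among the lower genes, against 0.02 over all genes tested. A change of at least 2-fold was seen in 8 of 44 higher and 31 of 138 lower genes. The number of calls depended on the samples. It was 50 (0.262%) with a sex covariate, of which 42 were among the 182, and 18 with Wt animals 425 and 426 left out, of which 16 were among them. It was 10 with all 12 libraries, all among the 182. All 182 genes kept their direction in each of these fits. The fits reuse the same libraries, so for genes without overlap of the groups this is little check.

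**Figure D1:**
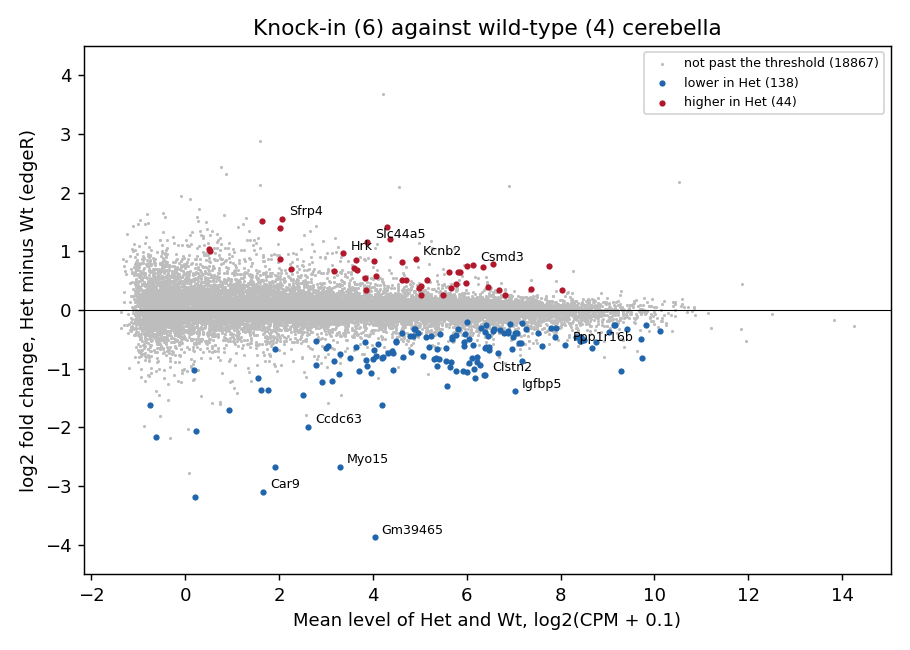
Each point is 1 gene tested, by its mean level in Het and Wt cerebella (log2 of CPM + 0.1, horizontal) and its log2 fold change, Het minus Wt (vertical). Genes lower in Het (138, blue) outnumber those higher in Het (44, red), and the largest labelled fall is that of Gm39465 at -3.87.

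Atxn1 itself did not differ between the groups beyond the spread between animals. Its level in Wt libraries was 161, 170.3, 176 and 143 CPM (animals 413, 425, 426 and 431), and in Het libraries it ran from 138 over a median of 170.0 to 183 CPM. The groups overlapped over nearly their whole range. The log2 fold change was 0.03 (SE 0.08, adjusted p 0.951 in edgeR), and it lay between -0.04 and 0.13 over the alternatives tried. The counts do not separate the 2 alleles.

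Slc44a5, a member of the choline transporter-like family, had the smallest p of the genes higher in Het cerebella. It stood at 8.57, 9.48, 9.59 and 8.53 CPM in the Wt libraries and at 18.2 to 22.2 CPM in the Het libraries, with a median of 20.5. No Het value came near the Wt range. The log2 fold change was 1.16 (SE 0.08, adjusted p 7.48e-05 in edgeR), and the call held in 29 of 29 alternatives.

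Kcnb2, a voltage-gated delayed rectifier potassium channel, was measured at 21.4, 22.9, 19.3 and 20.9 CPM in Wt and at 36.0 to 44.0 CPM in Het libraries (median 37.1). Its log2 fold change was 0.88 (SE 0.08, adjusted p 0.000355 in edgeR), also held in 29 of 29 alternatives. Kcnb2 was the sole potassium channel gene of 75 tested that passed the threshold as higher, against 0.231% of all genes tested. Csmd3, a large transmembrane protein of neurons, rose from 57.3, 48.1, 46.0 and 55.2 CPM in Wt to 79.2 to 98.9 CPM in Het libraries, a log2 fold change of 0.77 (SE 0.08, adjusted p 0.00198 in edgeR). Lrrc4c, the netrin-G1 ligand of excitatory synapses, rose by 0.46 on the log2 scale, with Wt libraries at 49.7 to 54.9 CPM and Het libraries at 66.8 to 78.1 CPM. Robo1, a receptor for the guidance cue Slit, rose by 0.64, from 42.6 to 47.8 CPM in Wt to 61.7 to 86.1 CPM in Het libraries. Lrp1b, a large receptor of the LDL receptor family, rose by 0.74, from 128, 185, 166 and 162 CPM in Wt to 233 to 319.6 CPM in Het libraries. Chosen after their values were seen, Csmd1, a relative of Csmd3, rose by 0.73, Cntnap2, a neurexin-related axonal adhesion protein, by 0.36, and Sdk1, an immunoglobulin adhesion protein of synapses, by 1.21.

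Hrk, a pro-apoptotic BH3-only member of the BCL2 family, was at 7.67, 6.25, 7.22 and 6.68 CPM in Wt and at 11.1 to 16.2 CPM in Het libraries (median 13.5). The log2 fold change was 0.97 (SE 0.11, adjusted p 0.00276 in edgeR). Sfrp4, a secreted antagonist of Wnt signals, had a log2 fold change of 1.56 (SE 0.18, adjusted p 0.00293 in edgeR). It was low throughout, at 2.12, 1.73, 2.27 and 2.12 CPM in Wt and 4.36 to 7.46 CPM in Het libraries, and no value of one group reached the other. Ankdd1a, an ankyrin repeat gene, moved by a similar amount, 1.52 (SE 0.22), from 1.13 to 2.00 CPM in Wt to 3.28 to 5.65 CPM in Het libraries.

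Sox4, a transcription factor best known in immature neurons and progenitors, rose by 0.68 (SE 0.08, adjusted p 0.00445 in edgeR), from 8.50 to 10.2 CPM in Wt to 13.8 to 17.0 CPM in Het libraries. Ebf4, of the early B-cell factor family, rose by 0.71, from 8.66 to 9.46 CPM to 12.9 to 16.8 CPM. Marcks, an actin-binding substrate of protein kinase C, rose by 0.78, from 60.8 to 78.1 CPM to 93.8 to 139 CPM. Necab1, a neuronal calcium-binding protein, rose by 0.82, from 14.9 to 21.0 CPM to 27.8 to 35.7 CPM. Chosen after their values were seen, Cbx8, a Polycomb protein gene, rose (log2 fold change 0.58), as did Polr2a, the largest subunit of RNA polymerase II (0.35), and Eif2ak2, the double-stranded RNA-activated kinase PKR (0.66). The last of the 14 genes named by smallest p, Gm19938, is a transcript model inside Xkr4 on the same strand. It rose by 0.54 and Xkr4 by 0.38, and reads of such overlapping models cannot be fully told apart. Of these 14 genes, 10 passed the threshold with a sex covariate; Lrrc4c, Gm19938, Necab1 and Robo1 did not. In the libraries of male mice alone 3 passed.

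Among genes lower in Het cerebella, Clstn2 had the smallest p. It encodes calsyntenin-2, a postsynaptic adhesion protein. The Wt libraries held 121, 120.3, 115 and 104 CPM and the Het libraries 47.1 to 62.7 CPM (median 52.9), so that the groups stood well apart. The log2 fold change was -1.10 (SE 0.07, adjusted p 7.48e-05 in edgeR). The call was lost in 1 of 29 alternatives, that with all 12 libraries, where animals 409 and 411 stood at 76.2 and 92.1 CPM, still below every Wt library. In these 2 libraries 42.5% and 40.7% of all genes tested lay below every Wt library.

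Igfbp5, a secreted binding protein of insulin-like growth factors, was at 198, 193, 195 and 162 CPM in Wt and at 61.4 to 86.3 CPM in Het libraries (median 70.2). Its log2 fold change was -1.38 (SE 0.10, adjusted p 7.48e-05 in edgeR), held in 29 of 29 alternatives. It was the sole one of 21 neuropeptide and IGF genes tested that passed, against 0.954% of all genes tested. Npy, coding for neuropeptide Y, stood wholly lower in Het, at 2.34 to 3.74 CPM against 4.18 to 5.73 CPM, with an edgeR adjusted p of 0.0756. Myo15, the unconventional myosin of hair cell stereocilia, fell from 16.3, 13.97, 15.2 and 22.0 CPM in Wt to 1.51 to 3.55 CPM in Het libraries. The log2 fold change of Myo15 was -2.67 (SE 0.20, adjusted p 0.000111 in edgeR), held in 29 of 29 alternatives.

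Car9, a membrane carbonic anhydrase that responds to low oxygen in many cells, fell from 5.18, 5.56, 6.43 and 4.65 CPM to between 0.176 and 0.883 CPM. This is a log2 fold change of -3.10 (SE 0.27, adjusted p 0.000302 in edgeR), held in 29 of 29 alternatives. The largest fall among the genes named by smallest p was that of Gm39465, which has no assigned function. Its Wt libraries held 22.1, 31.4, 31.7 and 36.8 CPM and its Het libraries 0.41 to 2.99 CPM (median 2.38), a log2 fold change of -3.87 (SE 0.32, adjusted p 0.000277 in edgeR). Further models without an assigned function, Gm15083 and 4930447F24Rik, had log2 fold changes of -3.19 and -2.68. Ccdc63, a coiled-coil protein of motile cilia and sperm flagella, had -1.99, from 8.66 to 10.7 CPM in Wt to 1.81 to 3.08 CPM in Het libraries.

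Ppp1r16b, a regulatory subunit of protein phosphatase 1, was at 331, 341, 342 and 308 CPM in Wt and 204 to 231 CPM in Het libraries (log2 fold change -0.59, SE 0.05, adjusted p 0.000284 in edgeR). Ywhah, the eta isoform of the 14-3-3 proteins, a family that binds ataxin-1, fell by 0.53 on the log2 scale, from 395 to 430.1 CPM to 257 to 325 CPM. Rhobtb2, an atypical small GTPase, fell by 0.37 with no overlap, from 93.6 to 96.6 CPM to 71.0 to 77.5 CPM. Cntnap5b, another neurexin-related protein, fell by 0.62, and Dnase2a, a lysosomal DNase, by 1.10. The long non-coding RNA Mirt1 fell by 1.61, from 18.9, 29.7, 31.3 and 29.9 CPM to 5.85 to 11.7 CPM, and its neighbour Dusp5, a nuclear phosphatase of ERK, fell by 1.00. All 14 lower genes named by smallest p passed with a sex covariate, and 10 of them in male mice alone.

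**Figure D2:**
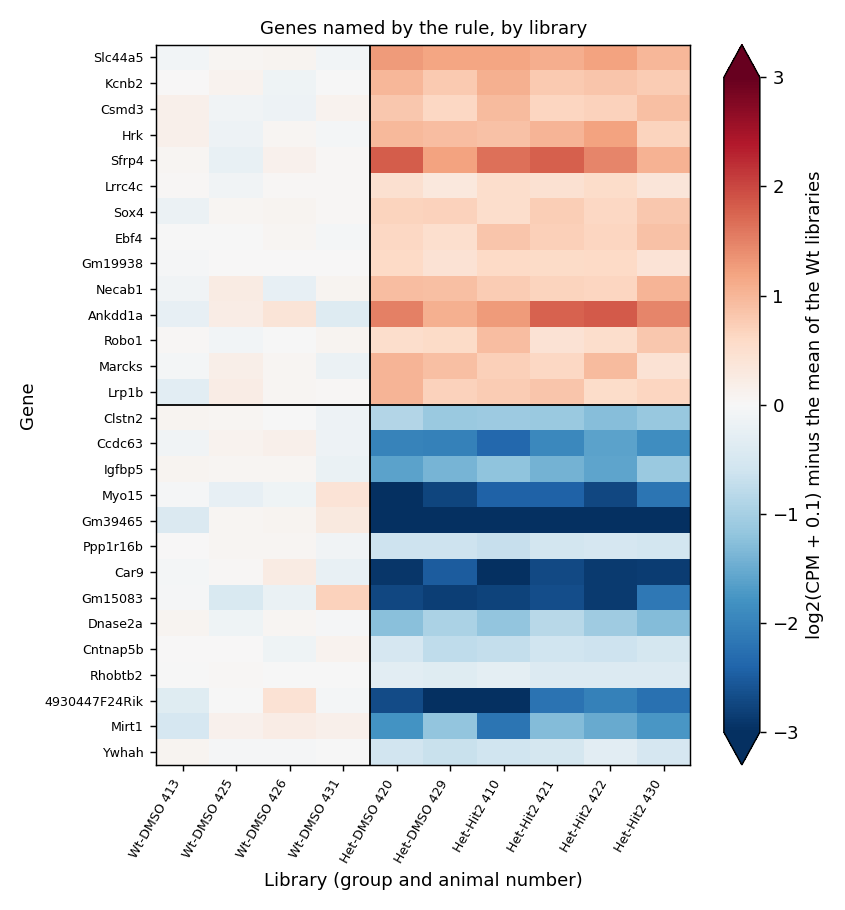
Rows are the 14 higher and 14 lower genes with the smallest p, columns the 10 libraries, and the colour is log2(CPM + 0.1) minus the mean of the Wt libraries. The genes were chosen among those with no overlap of Het and Wt libraries, so the shared colour direction of the 6 Het libraries in a row follows from the choice, while the depth of colour shows the size of each difference, with Gm39465 below -3 in each Het library.

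Purkinje cell genes were lower as a group. Of 29 tested, 5 fell past the threshold (0.724% of all genes tested did) and none passed as higher (0.231% of all genes). A log2 fold change below 0 was found in 28 of 29, and in 19 of 29 every Het library lay below every Wt library, as in 2.35% of all genes tested. The median log2 fold change of the list was -0.54, against 0.02 over all genes tested. The summed level of the list was 6917 to 11980 CPM in Het and 13476 to 14507 CPM in Wt libraries. In bulk tissue, fewer Purkinje cells and less RNA per Purkinje cell cannot be told apart.

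Gng13, a G protein gamma subunit, fell from 71.0, 80.5, 87.1 and 87.0 CPM in Wt to 25.5 to 46.4 CPM in Het libraries (median 41.0). Its log2 fold change was -1.04 (SE 0.13, adjusted p 0.00483 in edgeR). Dagla, the lipase that makes the endocannabinoid 2-AG, was tightly set in Wt at 155, 150.3, 154 and 153 CPM and ran from 76.7 to 114 CPM in Het libraries. The log2 fold change of Dagla was -0.66 (SE 0.10, adjusted p 0.0120 in edgeR).

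Aldoc, the aldolase that marks zebrin-positive Purkinje cells and is also made by astroglia, was at 811, 1292, 1146 and 1127 CPM in Wt and 555 to 706 CPM in Het libraries (log2 fold change -0.82, SE 0.12, adjusted p 0.0111 in edgeR). Pcp4, a calmodulin-binding peptide, was at 29.4, 34.1, 39.3 and 37.1 CPM in Wt and 15.9 to 25.3 CPM in Het libraries (log2 fold change -0.71, SE 0.13, adjusted p 0.0292 in edgeR). Some of the best known Purkinje markers did not pass. Calb1, coding for calbindin, had a log2 fold change of -0.57 (SE 0.16, adjusted p 0.164 in edgeR), Pcp2 -0.65 (SE 0.17, adjusted p 0.136), Car8 -0.63 (SE 0.17, adjusted p 0.155) and the inositol trisphosphate receptor Itpr1 -0.53 (SE 0.15, adjusted p 0.183). In each of these 4 the Het libraries lay wholly below the Wt libraries. Foxp2, a transcription factor of Purkinje and deep nuclear neurons, was the 1 member above 0, at 0.24 (SE 0.23, adjusted p 0.844).

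Of the libraries kept, Het-Hit2 410 had the lowest levels of many Purkinje genes. Calb1 was at 163 CPM there and at 262 to 343 CPM in the other Het libraries, against 376 to 431 CPM in Wt, and Itpr1 at 2032 CPM against 2902 to 3949 CPM in the other Het and 4444 to 4768 CPM in Wt libraries. Without library 410 the spread was smaller, the list's median was -0.44 and 14 of 29 members passed. Without libraries 410 and 430, which had the lowest Fat2 of those kept, 13 passed with a median of -0.43. With a sex covariate the median was -0.57 and no member passed, and with male Wt mice alone the median was -0.57 and again no member passed. Without Wt animal 426 1 member passed, and 3 passed without Wt animal 425, Wt animal 431, Het-Hit2 animal 421 or Het-Hit2 animal 430. With 1 surrogate variable, in Het-Hit2 alone or with all 12 libraries 1 passed, in Het-DMSO alone 8, and DESeq2 called 16. Keeping library 411 moved the median furthest, to -0.73 with 2 members past the threshold, and keeping library 409 gave -0.44 with 2. The direction of the list was thus the same with and without these libraries, while the number of its members past the threshold was not.

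**Figure D3:**
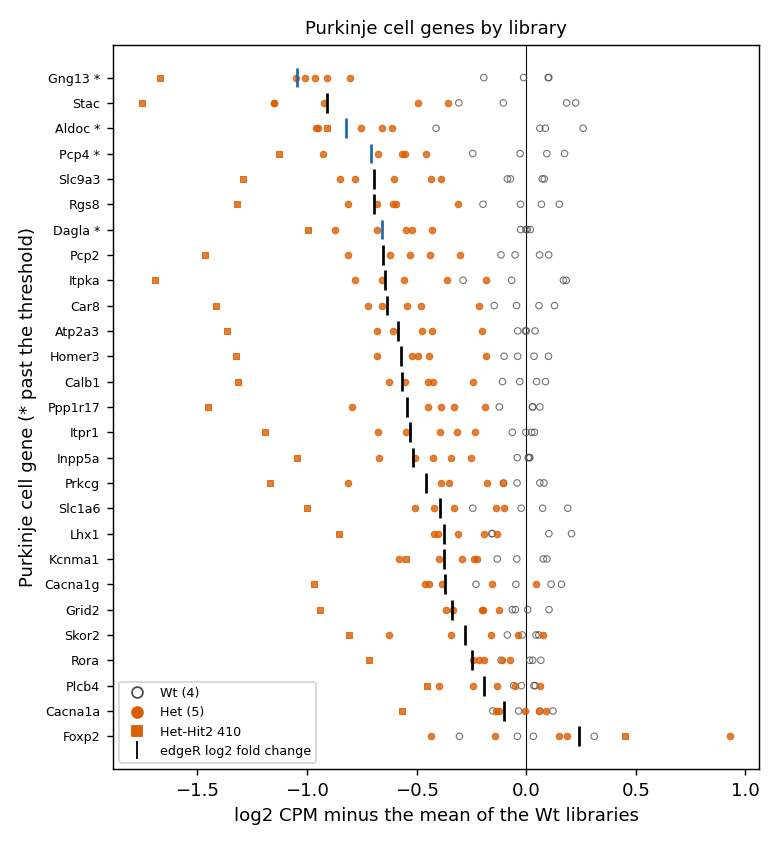
Each row is 1 Purkinje cell gene, and each symbol 1 library as log2 CPM minus the mean of the Wt libraries (open circles Wt, filled circles Het, squares Het-Hit2 410, bars the edgeR log2 fold change, blue and starred where past the threshold). The bars lie below 0 for 26 of the 27 genes drawn, and library 410 is the lowest library for most of them.

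The calcium signalling list, which shares genes with the Purkinje list, gave 5 lower and 0 higher of 39 tested (0.724% and 0.231% of all genes tested), with 32 below 0 and a median of -0.26, against 0.02 over all genes. Besides Dagla they included Plcb3, Pde5a and Atp2a2. Plcb3, a phospholipase C beta of zebrin-positive Purkinje cells, was at 49.8, 83.6, 82.9 and 74.6 CPM in Wt and 28.3 to 43.0 CPM in Het libraries (log2 fold change -1.03, SE 0.15, adjusted p 0.0125 in edgeR). Its Wt value in animal 413 lay near the Het values. Pde5a, the phosphodiesterase of cyclic GMP, was at 112, 101, 111 and 111 CPM in Wt and 50.9 to 81.8 CPM in Het libraries (-0.68, SE 0.11, adjusted p 0.0211 in edgeR). Atp2a2, the SERCA2 calcium pump, was at 1287, 1269, 1258 and 1193 CPM in Wt and 851 to 1063 CPM in Het libraries (-0.36, SE 0.06, adjusted p 0.0272 in edgeR). None of the 39 passed without Wt animal 426 (median -0.24), with a sex covariate (median -0.21), without the Wt libraries with Xist, with 1 surrogate variable, with library 409 kept or with all 12 libraries. With library 411 kept or in Het-Hit2 alone 1 passed, 2 passed without Wt animal 413, 425 or 431, 3 without Het animal 420, 429 or 421, and 12 without library 410 (median -0.22). The median lay below 0 in each of these fits.

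Other synaptic receptors and channels gave few calls. Grm4, the presynaptic metabotropic glutamate receptor of parallel fibres, was the 1 glutamate receptor gene of 25 tested that passed the threshold as lower (0.724% of all genes tested did), while 13 of 25 were below 0 and the list's median was -0.09. It stood at 784, 901, 954 and 734 CPM in Wt and at 252 to 512 CPM in Het libraries (median 438), a log2 fold change of -1.04 (SE 0.17, adjusted p 0.0190 in edgeR), and no Het library came near the Wt range. The call held in 19 of 29 alternatives. It was lost with a sex covariate, with 1 surrogate variable, without the Wt libraries with Xist, without Wt animal 425 or 426, in either Het group alone, and with library 409, library 411 or both kept. Among potassium channel genes 3 of 75 passed as lower, against 0.724% of all genes tested, and the median of all 75 was -0.05. With a sex covariate, with 1 coefficient per labelled group or without Het-DMSO animal 420 or 429, 1 passed as lower. None did with 1 surrogate variable, without the Wt libraries with Xist, without Wt animal 413 or 426, without Het-Hit2 animal 421, in either Het group alone or with library 409, library 411 or both kept, and the median was 0.07 with all 12 libraries. The 3 included Kcnh3 (-2.07, SE 0.34), at 1.19 to 2.63 CPM in Wt and 0.125 to 0.663 CPM in Het libraries, and Kcnip4 (-0.59, SE 0.11), a calcium-binding subunit of A-type channels. Doc2b, a calcium sensor of spontaneous transmitter release, was the 1 of 25 synaptic vesicle and release genes that passed as lower, against the same 0.724% of all genes (log2 fold change -0.63, SE 0.11, adjusted p 0.0210 in edgeR), while 10 of 25 were below 0 and the list's median was 0.03. The call held in 17 of 29 alternatives. It was lost with a sex covariate, with 1 surrogate variable, without the Wt libraries with Xist, without Het-Hit2 animal 421, without any 1 of the 4 Wt libraries, in Het-Hit2 alone, and with library 409, library 411 or both kept.

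No member of the lists of calcium channels (23 tested), sodium channels with Fgf14 (14) or GABA-A and glycine receptors (20) passed. Outside the lists and chosen after their values were seen, both subunits of the GABA-B receptor were lower, Gabbr1 by a log2 fold change of -0.25 (608 to 623 CPM in Wt, 492 to 540.1 CPM in Het libraries) and Gabbr2 by -0.46 (349 to 428 CPM against 242 to 325 CPM). Further lower genes chosen in this way were Grid2ip, a scaffold of the delta2 glutamate receptor in Purkinje spines (-0.87), Ppp1r1b, coding for DARPP-32 (-0.72), Dner, a Notch-related protein of Purkinje cells (-0.50), and Nab1 and Nab2, corepressors of the EGR transcription factors (-0.43 and -0.96). The immediate early gene list itself had no member past the threshold of 17 tested, with a median of -0.20 and 14 below 0. That median was -0.06 with a sex covariate or without the Wt libraries with Xist, -0.07 in Het-Hit2 alone and -0.11 in Het-DMSO alone. The summed level overlapped between the groups, at 368 to 517 CPM in Het and 429 to 518 CPM in Wt libraries.

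No granule cell gene of 17 passed (median -0.15, 15 below 0), and none of 16 cerebellar interneuron genes (median -0.14, 13 below 0). The granule cell median depended on the libraries, whose choice used a gene of these cells: it was -0.35 with library 411 kept, -0.28 with all 12 libraries, -0.10 with library 409 kept, -0.10 without library 410, -0.03 without libraries 410 and 430, and -0.04 with 1 surrogate variable. The interneuron median was -0.09 without libraries 410 and 430. The summed interneuron level was 1194 to 1462 CPM in Het and 1470 to 1527 CPM in Wt libraries. Of 16 Bergmann glia and astrocyte genes none passed, 15 were below 0, and the summed level was 3446 to 3742 CPM in Het against 4096 to 4273 CPM in Wt libraries, with no overlap. Gdf10, a Bergmann glia growth factor, had a log2 fold change of -0.90 (SE 0.21, adjusted p 0.0889 in edgeR).

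Lists of other cells that the dissection could hold also had no member past the threshold: microglia (15 tested, summed level 91.6 to 176 CPM in Het and 89.6 to 127 CPM in Wt libraries), oligodendrocytes (15, 1453 to 6079 and 1978 to 3763 CPM), their precursors (10, 341 to 674 and 312 to 466.1 CPM), choroid plexus (14, 76.1 to 3083 and 98.3 to 1806 CPM) and midbrain and brainstem (8 of 22 tested, 7.53 to 190.6 and 25.7 to 70.0 CPM). The sums of these lists overlapped between the groups. The same held for endothelium and pericytes (16 tested, 481 to 705 and 489 to 581 CPM), meninges and fibroblasts (12, 405 to 900.2 and 369 to 686 CPM) and red blood cells (5, 9.82 to 67.7 and 6.26 to 54.3 CPM). Log2 fold changes lay above 0 in 14 of 15 microglia, 14 of 15 oligodendrocyte, 9 of 10 precursor and 7 of 14 choroid plexus genes. They also did in 6 of 8 midbrain and brainstem, 13 of 16 endothelium and pericyte, 8 of 12 meninges and fibroblast and 5 of 5 red blood cell genes. The microglia, oligodendrocyte and precursor medians of 0.17, 0.09 and 0.17 became -0.02, -0.25 and -0.08 without library 410. The part of these cells in the results above was not tested.

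**Figure D4:**
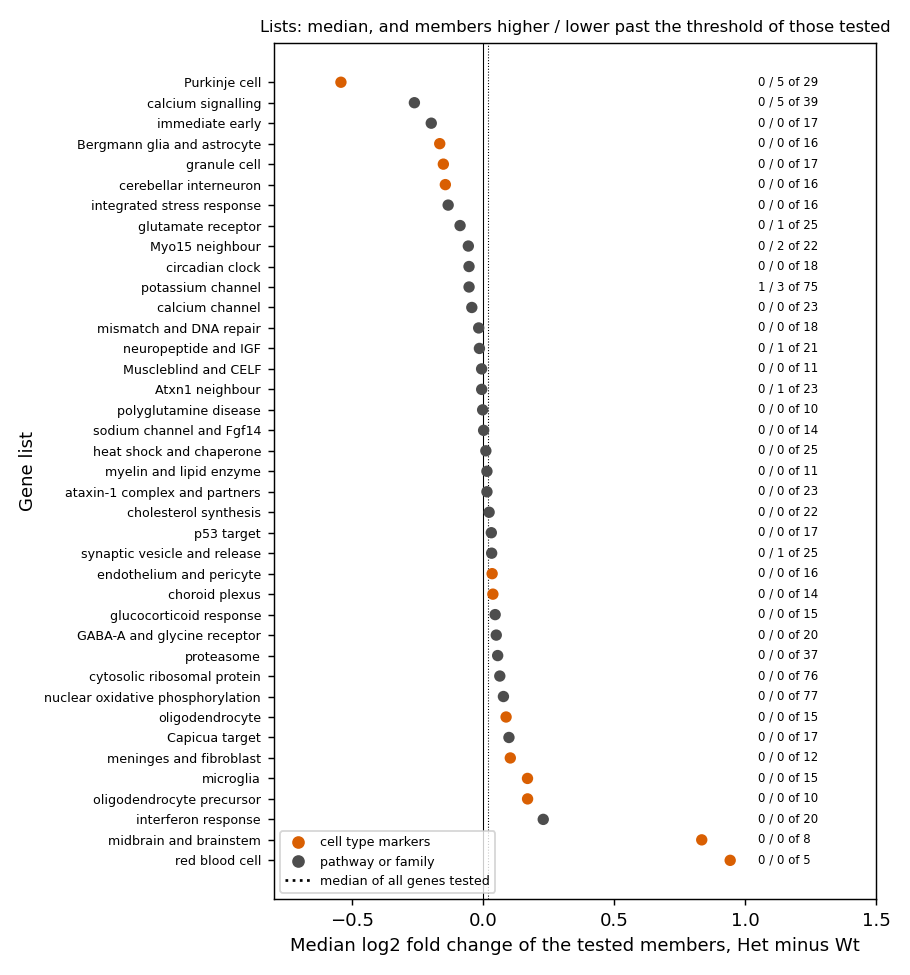
Points give the median log2 fold change, Het minus Wt, of the tested members of each list (orange cell type markers, grey pathways and families), with the numbers higher and lower past the threshold at the right. The Purkinje cell list is lowest at -0.54 and next is the calcium signalling list at -0.26, while the highest medians, of the red blood cell and the midbrain and brainstem lists, rest on 5 and 8 genes with none past the threshold.

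Among gene families tied to the disease protein, none of 23 ataxin-1 partners passed (median 0.01), none of 17 Capicua targets (median 0.10, 12 above 0) and none of 10 polyglutamine disease genes (median 0.00). The Capicua target median depended on the fit. It was 0.01 without library 410 or with 1 surrogate variable, 0.22 with a sex covariate and 0.36 with all 12 libraries. Lists of housekeeping complexes had members nearly all above 0 by small amounts and none past the threshold: 73 of 76 cytosolic ribosomal protein genes (median 0.06), 71 of 77 nuclear genes of oxidative phosphorylation (median 0.08) and 34 of 37 proteasome genes (median 0.06). Every Het library lay above every Wt library in only 0, 2 and 0 of these genes, against 1.28% of all genes tested. Their summed levels overlapped between the groups, with ribosomal genes at 5045 to 6010 CPM in Het and 4715 to 5289 CPM in Wt libraries. None passed among 16 genes of the integrated stress response (15 below 0, median -0.13), 25 heat shock genes (median 0.01), 17 p53 targets (median 0.03) or 18 mismatch and DNA repair genes (median -0.02). The integrated stress response median was -0.11 with a sex covariate and -0.05 with all 12 libraries. The lists of cholesterol synthesis (22), circadian clock (18), glucocorticoid response (15), interferon response (20, median 0.23), Muscleblind and CELF genes (11) and myelin lipid enzymes (11) gave no call either. The interferon response median varied with the fit, to 0.35 with all 12 libraries. Its summed level overlapped between the groups, at 293 to 343 CPM in Het and 316 to 341 CPM in Wt libraries.

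The genes called also differed from all genes tested in features that were not entered in the test. Their median level was 27.9 CPM for the higher and 51.1 CPM for the lower genes, against 13.8 CPM over all genes tested. The shares that follow are therefore not set against genes of like level. Protein-coding genes made up 41 of 44 higher and 115 of 138 lower genes, against 75.0% of all genes tested. The higher protein-coding genes were long. From start to end, by GENCODE M21 (mouse build GRCm38), their median span was 93.4 kb, against 36.1 kb for the lower and 25.7 kb for all protein-coding genes tested. A span over 100 kb was found in 20 of 41 higher (48.8%), 28 of 115 lower (24.3%) and 15.9% of all protein-coding genes tested. Long genes as a whole were not shifted: the median log2 fold change was 0.02 for 2279 protein-coding genes over 100 kb and 0.02 for the shorter ones.

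On chromosome 5, 28 of 1393 genes tested were called (2.01%, against 0.954% of all genes tested), and 15 of the 28 are Kcnip4 and the models inside it, leaving 13 others. On the same strand within the gene lie 14 further called transcript models, all of a class that the annotation lists as not yet supported by experiment. Their log2 fold changes ran from -1.05 (2900064K03Rik) to -0.70 (Gm42769), beside -0.59 for Kcnip4. Kcnip4 itself stood at 102, 70.2, 80.0 and 85.5 CPM in Wt and at 46.9 to 64.8 CPM in Het libraries. In all, 18 called models lie inside another called gene on the same strand, so that the calls come to 42 higher and 122 lower genes outside one another.

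**Figure D5:**
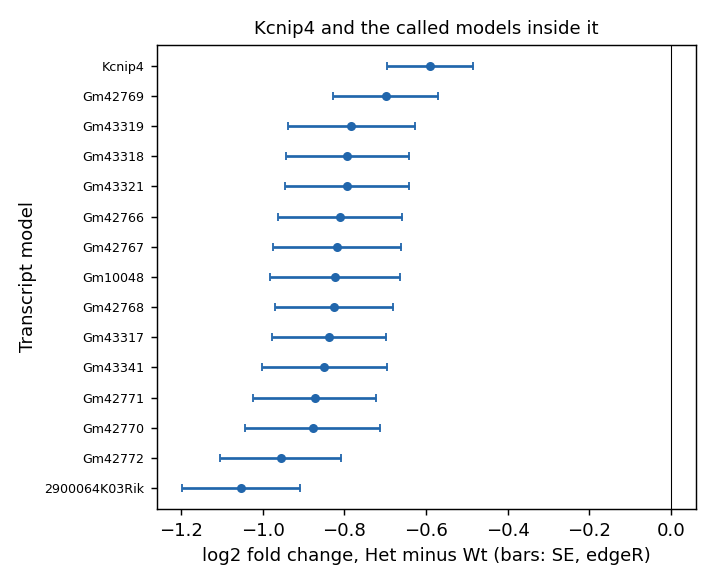
Points are log2 fold changes, Het minus Wt, with SE bars, for Kcnip4 (top) and the 14 called models inside it on the same strand. Every one lies between -1.05 and -0.59.

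Near Atxn1, within 10 Mb on chromosome 13, 1 of 151 genes tested was called (0.662%, against 0.954% of all genes tested). It was Id4, an inhibitor of basic helix-loop-helix factors, which fell from 61.8, 57.7, 56.9 and 60.9 CPM to 32.7 to 48.5 CPM (log2 fold change -0.46, SE 0.09, adjusted p 0.0411 in edgeR). Near Myo15, within 10 Mb on chromosome 11, 4 of 295 were called (1.36%, against the same 0.954%): Mprip, Atp1b2 and Slc16a11 were lower and Polr2a higher. Of the fixed list of 22 Myo15 neighbours, Myo15 and Mprip (-0.32, SE 0.06) passed, both as lower (0.724% of all genes). With a sex covariate neither Id4 nor Mprip passed. Elsewhere on chromosome 11 the adjacent genes Spag5, Aldoc and Pigs were all lower, with log2 fold changes of -1.03, -0.82 and -0.32. Spag5 was at 17.9, 37.9, 32.5 and 26.4 CPM in Wt and 11.6 to 15.6 CPM in Het libraries.

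Promoter sequences were searched for the octamers bound by Capicua, since ataxin-1 works with this repressor. The motifs were TGAATGAA, TGAATGGA, TCAATGAA and TCAATGGA on both strands, in RefSeq windows of GRCm38.p6 around each gene's start. A gene was counted once, as matched if any of its windows held an octamer. A match was present for 4.45% of all 27025 genes with a window and for 2.96% of the 11944 of them that were tested. It was present for 0 of 28 higher genes with a window and 2 of 89 lower genes with a window (2.25%), Kcnip4 and Pigs. A match describes letters in the window and is not a binding site shown by these data. The 250 bases before the start in the first matching window are given for these 2 genes, with the octamer, or its reverse complement, in capitals. That of Kcnip4 (chr5:49285660-49285909, minus strand) begins 79 bases before the start, and that of Pigs (chr11:78328172-78328421, plus strand) 154 bases before it.
Kcnip4: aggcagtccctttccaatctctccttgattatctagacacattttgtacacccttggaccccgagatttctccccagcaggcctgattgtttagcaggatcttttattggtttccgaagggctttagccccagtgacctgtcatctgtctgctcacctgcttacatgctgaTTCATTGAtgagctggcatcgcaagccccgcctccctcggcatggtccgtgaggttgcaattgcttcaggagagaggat
Pigs: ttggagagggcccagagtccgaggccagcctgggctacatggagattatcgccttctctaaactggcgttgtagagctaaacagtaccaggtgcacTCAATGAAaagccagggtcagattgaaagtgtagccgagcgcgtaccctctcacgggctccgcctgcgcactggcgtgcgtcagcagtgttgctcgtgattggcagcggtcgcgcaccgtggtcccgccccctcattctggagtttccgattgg

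The pooled Het groups were compared with each other. In the libraries kept, Het-Hit2 against Het-DMSO gave 0 of 20105 genes past the threshold in edgeR (0%), with 748 at an unadjusted p under 0.05, 4 called by DESeq2 and 0 by limma with quality weights. With 2 Het-DMSO libraries this comparison has little power, and a gene short of the threshold is not shown to be equal. Taken separately against the same 4 Wt libraries, the 2 Het-DMSO libraries gave 64 calls, 45 of them among the 182, and the 4 Het-Hit2 libraries gave 54, 49 of them among the 182. These fits share their Wt libraries and are not independent. For Igfbp5 the log2 fold changes were -1.50 in Het-DMSO and -1.32 in Het-Hit2, for Myo15 -3.09 and -2.50, for Slc44a5 1.23 and 1.13, for Kcnb2 0.89 and 0.87, and for the median of the Purkinje list -0.54 and -0.53. These genes were called in the pooled fit, which favours genes alike in the 2 groups. Of the lists of other cells, 4 had medians of opposite sign in these fits. They were 0.96 (14 members) in Het-DMSO and -0.87 (12 members) in Het-Hit2 for choroid plexus, -1.13 (10 members) and 1.03 (7 members) for midbrain and brainstem, 0.40 and -0.09 (12 members) for meninges and fibroblasts, and -0.01 and 0.14 (15 members) for oligodendrocytes. Choroid plexus levels varied widely within groups: the list score (the mean of its genes' log2 CPM, each less its median over the 10 libraries) was 4.08 in Het-DMSO 429, 3.43 in Wt 425, 3.23 in Het-Hit2 410 and 2.68 in Wt 413, and below 0 in the other 6 libraries. The pooled choroid plexus median of 0.04 moved to -1.03 without library 429 and to 0.83 without Wt animal 425. The pooled midbrain and brainstem median of 0.83 moved to -0.16 without library 410. No difference between the Het groups is read from these medians.

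The 2 libraries left out took no part in the calls, and their values are given as a description. Myo15 stood at 3.50 and 1.77 CPM, Igfbp5 at 56.7 and 113 CPM and Slc44a5 at 23.1 and 13.3 CPM in libraries 409 and 411, each outside the range of the Wt libraries in the direction of the Het libraries kept. Such a position was common in these 2 libraries. Of all genes tested, 39.3% lay above and 42.5% below every Wt library in library 409, and 40.6% and 40.7% in library 411. Grm4 stood at 844 CPM in library 409, within the Wt range, and at 61.6 CPM in library 411, in which Fat2 was nearly absent. Csmd3 stood at 27.4 CPM in library 409, below every Wt library, and at 184 CPM in library 411.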

How the data were processed

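The deposited values are raw read counts per gene, 1 STAR table per library with 3 columns of counts (without regard to strand, first read's strand, opposite strand), per the file headers. STAR 2.7.10a, FastQC 0.11.9 and the builds GRCm39 and mm39 are named by the submitters' processing notes, while the annotation release and any trimming are not given in the sources used here. The opposite-strand counts were used, since the libraries are directional per the labels' protocols and 5.21% to 6.47% of gene reads fell on the other strand. Rows that name no gene (44.7% to 54.6% of reads without a feature, and the multimapping, unmapped and ambiguous reads) stayed out of library sizes and tests. Of 55401 identifiers, 55141 matched a symbol in GENCODE M21 and 260 did not. Because that annotation is of another build, no coordinates are given beside the measured values, those of the 2 promoter windows are of the RefSeq build GRCm38.p6, and spans and neighbours are descriptions. RefSeq promoter windows matched by symbol 28 of 44 higher and 89 of 138 lower genes.

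Het-DMSO and Het-Hit2 were pooled as 1 group. Genes passing filterByExpr were fitted with edgeR 4.0.16 (R 4.3.3, TMM factors, quasi-likelihood, two-sided, no covariate), with Benjamini-Hochberg adjustment over all genes and a threshold of 0.05. Standard errors come from the quasi-likelihood F statistic. CPM uses TMM-scaled library sizes, and list scores are means over a list of log2 CPM (prior count 2) after subtracting each gene's median of the 10 libraries. In simulated counts for 6 against 4 libraries and 19071 genes, the fit recovered 44.8% of 1.5-fold, 65.7% of 2-fold and 92.4% of 4-fold changes. The genes named were the 14 of lowest p in each direction among called genes that carry a symbol, reach a mean of 1 CPM in at least one genotype and show no overlap of Het with Wt libraries, then Atxn1, Myo15, and up to 4 members of each of 40 lists, of which those past the threshold or bearing on a result are given. The members, lists and tests were chosen with earlier results of these data known. Lists are described by counts and medians, with no set test. Alternatives used DESeq2 1.42.0, limma 3.58.1, sva 3.50.0, other scalings, filters, strands and thresholds, 1 coefficient per group, a sex covariate read from Xist, other sets of libraries and each library left out in turn. Replicates are separate animals, per their numbers. Some genes tested are not reported here.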

Additional observations from a re-analysis of the deposited data

Results flagged for a closer look

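In a group of 4 Wt or 6 Het libraries, 21 of 248 checks found 1 library far from the rest of its group by Dixon's criterion, where chance alone gives about 12.4. Library Het-Hit2 410 stood apart in 5 of them. It was lowest for Car9 (0.1755 CPM, next 0.6273), Gng13 (25.51 CPM, next 39.11) and the Bergmann glia and astrocyte score (-0.2822, next -0.1359), and highest for Ppp2r2b, a phosphatase subunit gene of another CAG-repeat ataxia (52.72 CPM, next 39.83), and for the heat shock and chaperone score (0.1919, next -0.005698). It was the library with the lowest Purkinje level as well. Of the other Het libraries, 430 was highest for Gm15083 (0.3314 CPM, next 0.1993), 429 lowest for the calcium channel score (-0.1926, next -0.04847), and 422 the deepest, with 43670280 gene reads (next 23753272).

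Among Wt libraries, animal 413 was lowest for Mirt1 (18.9 CPM, next 29.68), Nab1 (57.96 CPM, next 64.11) and Pigs (56.01 CPM, next 63.13), and highest for Dner (443 CPM, next 418.6). Animal 425 was lowest for Lrrc4c (49.69 CPM, next 54.36), the inositol phosphatase gene Inpp5a (323.9 CPM, next 335.4) and Pde5a (101.3 CPM, next 111). Animal 431 was lowest for Igfbp5 (162.4 CPM, next 193.4), the endothelium and pericyte score (-0.3349, next 0.01176) and the cytosolic ribosomal protein score (-0.1488, next -0.002743), and highest for the red blood cell score (1.085, next -1.548). Animal 426 was highest for the polyglutamine disease score (0.0105, next -0.03574) and had 6.529% of reads unmapped (next 4.722%). In none of the genes named here that passed the threshold did the library standing apart reach the range of the other genotype. This follows from their Het and Wt libraries not overlapping, so it is no check of these libraries.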

How the results depend on the processing

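No log2 fold change of the 63 genes past the threshold that were followed changed direction under any alternative. Most alternatives refit or leave out some of the same libraries, which did not overlap for 180 of the 182 genes. A kept direction is therefore little check of these genes. Against 182 genes, 117 passed with 1 coefficient per labelled group, 33 with 1 surrogate variable, 50 with a sex covariate and 18 without the Wt libraries that express Xist. DESeq2 called 502 and limma with quality weights 412. Het-DMSO libraries alone gave 64 and Het-Hit2 libraries alone 54. Keeping library 409 gave 23, keeping library 411 gave 39 and all 12 libraries 10, so the count depended on the rule that chose the libraries. With thresholds of 0.01 and 0.1 on the adjusted p, 36 and 323 genes passed. Leaving out each replicate in turn gave 38 to 256 genes. Without Het animal 420, 429 or 421 there were 112, 101 and 84, and without Wt animal 413, 425, 426 or 431 there were 102, 78, 38 and 71. For Het-Hit2 against Het-DMSO, DESeq2 gave 4 genes and leaving out a replicate gave 0 to 1, the 1 arising without Het-DMSO animal 420 and without Wt animal 413. The other scalings (184 and 185), no filter (174), a filter at a mean of 50 reads (208), counts of both strands (183) and robust fitting (176) stayed within 1.5 times of 182. After the data were seen, 2 alternatives were added: without X and Y genes there were 178 genes, and without libraries 410 and 430, 261.

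Of 1825 values of these 63 genes, 1325 stayed past it and 500 did not. Slc44a5, Kcnb2, Igfbp5, Myo15, Gm39465 and Car9 passed under every alternative run. The median of a list moved by more than 1 standard deviation of its replicates in 27 of 1092 values. No paired analysis was possible because animal numbers do not recur between groups. Depth was 15855751 to 43670280 gene reads, so a gene at 1 CPM rests on few reads. The number of Purkinje calls depended on the sex covariate and on which Het and Wt libraries were kept. Sample numbers in the file names recur, and the labels name no sequencing run, so runs could not be compared.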

Other observations

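Some further genes past the threshold, in none of the lists, were picked with their values in view and stand for no group. Ush1g, known from hair cells, had a log2 fold change of -1.15. The actin-based motor Myo10 had -0.40, the giant sarcomere protein gene Neb -0.81 and Mlph, an adaptor of myosin-driven melanosome transport, -0.94. The secreted signal Wnt3 had -0.62. Id2, an inhibitor of basic helix-loop-helix factors, had -0.50.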
